A study of Panax japonicus with 5 samples.

Results

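The leaf library of Panax japonicus was compared with the libraries of flower, rhizome_Y, rhizome_O and secRoot at the level of the enzyme, by adding up all the assembled contigs that the study assigned to the same Enzyme Commission number. The members are the enzymes in the study's list of enzymes by KEGG pathway whose list of contigs is complete and whose contigs together hold at least 50 counts over the 5 libraries. This gave 437 enzymes, out of 481 with a complete list and 754 with any entry in the part of that list used here, and their 3806 contigs are a small part of the 206610 contigs of the assembly. The lists of 273 enzymes are cut short and these were not analysed here. The longest list among the enzymes compared holds 22 contigs, so large enzyme families are missing from what follows.

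According to the sample descriptions, the 5 tissues come from 1 untreated plant aged 7 years that grew outdoors in a medicinal plant garden. Leaf is the aerial green organ, flower the reproductive one, rhizome_Y the young and rhizome_O the old part of the underground stem, told apart by the scars that the yearly buds leave, and secRoot the secondary root. Each tissue has 1 library, so no difference between tissues could be checked in replicates, p-values are not given, and intervals cover counting error only. The counts of a library added up to between 2403221 (flower) and 4920387 (secRoot), with 4614642 in leaf, and values are given as counts per 1000000 counts of the library (CPM).

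Leaves carry out photosynthesis. In the Calvin cycle, ribulose-bisphosphate carboxylase (rubisco) fixes carbon dioxide with the energy and reducing power that the thylakoid electron transport chain provides, photorespiration recycles the product that rubisco forms with oxygen, and chlorophyll is made from tetrapyrroles in the plastid. Panax species are known for ginsenosides, triterpene saponins whose carbon skeleton comes from acetyl-CoA through the mevalonate pathway and squalene, and which are mainly obtained from roots and rhizomes.

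Leaf reads stood on other contigs than the reads of the remaining tissues, and this was so for nearly every enzyme. For an enzyme with at least 20 counts in both libraries, the overlap was defined as the share of its counts that 2 libraries place on the same unigenes, where a unigene is the set of contigs that the assembler gave 1 gene identifier. The median overlap was 0.707% between leaf and flower (372 enzymes), 0.930% between leaf and rhizome_Y, 1.40% between leaf and rhizome_O and 0.836% between leaf and secRoot. Between any pair of the 4 other tissues it was 95.6% to 97.1%. The most abundant unigene of an enzyme was the same in leaf and flower for 9 of 372 enzymes (2.42%), while pairs of the other tissues shared it for 90.03% to 94.1%. Of 2242 unigenes with counts in these enzymes, 1024 had at least 90% of their level in leaf and held 93.6% of the leaf counts and 0.256% of the counts of the other tissues. The 1155 unigenes with at most 10% of their level in leaf held 1.03% of the leaf counts and 96.9% of the others, and only 63 unigenes lay between. The cause of this separation was not tested, and with 1 leaf library, library and tissue cannot be told apart. Separate unigenes were also the rule for enzymes that every cell uses, so the descriptions' statement that leaf and the other tissues share 1 plant and 1 species could not be checked here, and each ratio of leaf to another tissue below is a ratio between libraries that rests on that statement. Contigs were added up by enzyme for this reason: a unigene of leaf nearly always reads close to 0 elsewhere, and the reverse.

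**Figure D1:**
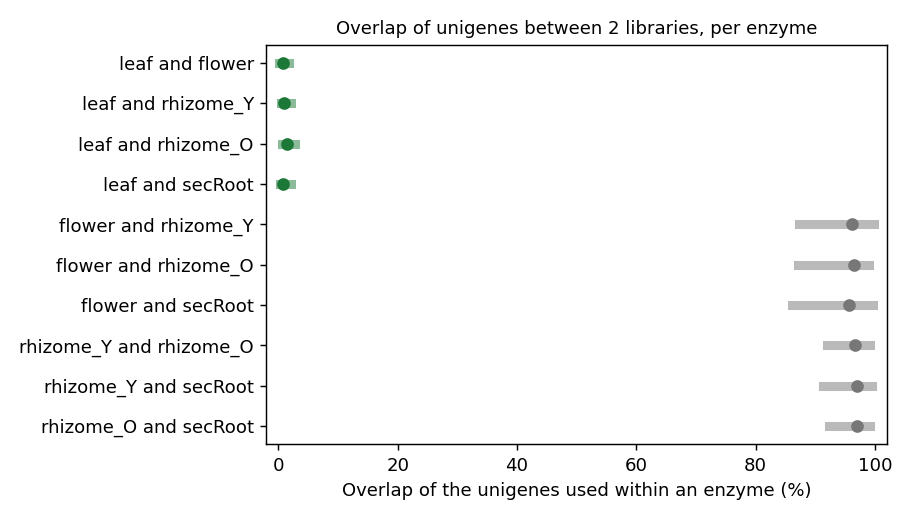
Overlap of the unigenes used within an enzyme, in percent, for each pair of libraries. Points are medians over enzymes and bars run from the lower to the upper quartile; the 4 pairs that include leaf (green) lie between 0.707% and 1.40%, and the 6 pairs without it (grey) between 95.6% and 97.1%.

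An overlap with leaf above 50% in at least 1 comparison was found for 6 enzymes: betaine-aldehyde dehydrogenase, methionyl-tRNA formyltransferase, glycine transaminase, methionine gamma-lyase, GDP-mannose 3,5-epimerase and phosphomannomutase. Glycine transaminase, which passes amino groups between glycine and oxo acids, had 399 CPM in leaf, against 58.3 in flower, 43.5 in secRoot, 57.4 in rhizome_O and 64.2 in rhizome_Y. Its unigene TR59653|c1_g1 held 1785 counts in leaf, against 136 in flower, 212 in secRoot, 192 in rhizome_O and 178 in rhizome_Y. Within that unigene the libraries still used different contigs, as the overlap of leaf and flower was 96.9% over unigenes and 0.0543% over contigs. Methionine gamma-lyase, picked for its shared unigene, breaks methionine down to methanethiol and showed the same arrangement on TR60991|c1_g1, with 1064 CPM in leaf, against 596 in flower, 266 in secRoot, 534 in rhizome_O and 355 in rhizome_Y, and an overlap with flower of 90.6% over unigenes and 9.03% over contigs. Over contigs, the overlap of leaf with flower was 0.0543% to 19.05% in the 6 enzymes.

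Summed by enzyme, leaf and the other tissues could be set side by side. The contigs of the 437 enzymes held 3.68% of all counts in leaf, against 2.97% in flower, 3.11% in secRoot, 3.15% in rhizome_O and 3.23% in rhizome_Y. Enzymes were counted as higher in leaf where the ratio of CPM was 2 or more and as lower where it was 0.5 or less. Against flower, 94 enzymes (21.5%) were higher and 134 (30.7%) lower. Against rhizome_Y, 106 (24.3%) were higher and 131 (30%) lower, and against rhizome_O 107 (24.5%) were higher and 127 (29.1%) lower. Against secRoot the counts were nearly equal, with 123 (28.1%) higher and 124 (28.4%) lower. The median log2 ratio over all enzymes was -0.13 against flower, -0.05 against secRoot, -0.19 against rhizome_O and -0.17 against rhizome_Y.

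The 4 comparisons share the leaf library, so they are 4 views of it. In leaf, 69 enzymes (15.8%) were at least 2-fold higher than in each of the 4 others and 86 (19.7%) at least 2-fold lower, while 122 (27.9%) stayed within 2-fold of all 4 and 160 (36.6%) did something else. Leaf was the highest of the 5 libraries for 143 enzymes and the lowest for 182 in CPM, whereas in FPKM (deposited values that also take contig length into account) it was the highest for 219 and the lowest for 107. Where no count was seen, up to 3 counts are possible, which is 0.650 CPM in leaf and 1.25 CPM in flower, and 9 enzymes had no count in leaf. Of the 86 lower enzymes, 17 had no unigene with at least 90% of its level in leaf, against 22 such enzymes among all 437. Of the 69 higher enzymes, 5 had no unigene with at most 10% of its level in leaf, against 6 among all 437. (RS)-Norcoclaurine 6-O-methyltransferase and berbamunine synthase, described below, are among the 5. Where an enzyme is listed on unigenes of 1 side only, its level and the assignment of contigs to enzymes cannot be told apart. Of the 437 enzymes, 21 have the same contig list as another one, and 647 of the 3806 contigs stand under more than 1 enzyme. Of the enzymes described below, all contigs of choline dehydrogenase, aspartate-semialdehyde dehydrogenase, glutathione hydrolase, ferredoxin-nitrite reductase, tyrosine decarboxylase, homoserine O-succinyltransferase, serine-pyruvate transaminase and cis-zeatin O-glucosyltransferase are of that kind. In whole organs, fewer cells of a type and less RNA per cell cannot be told apart.

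**Figure D2:**
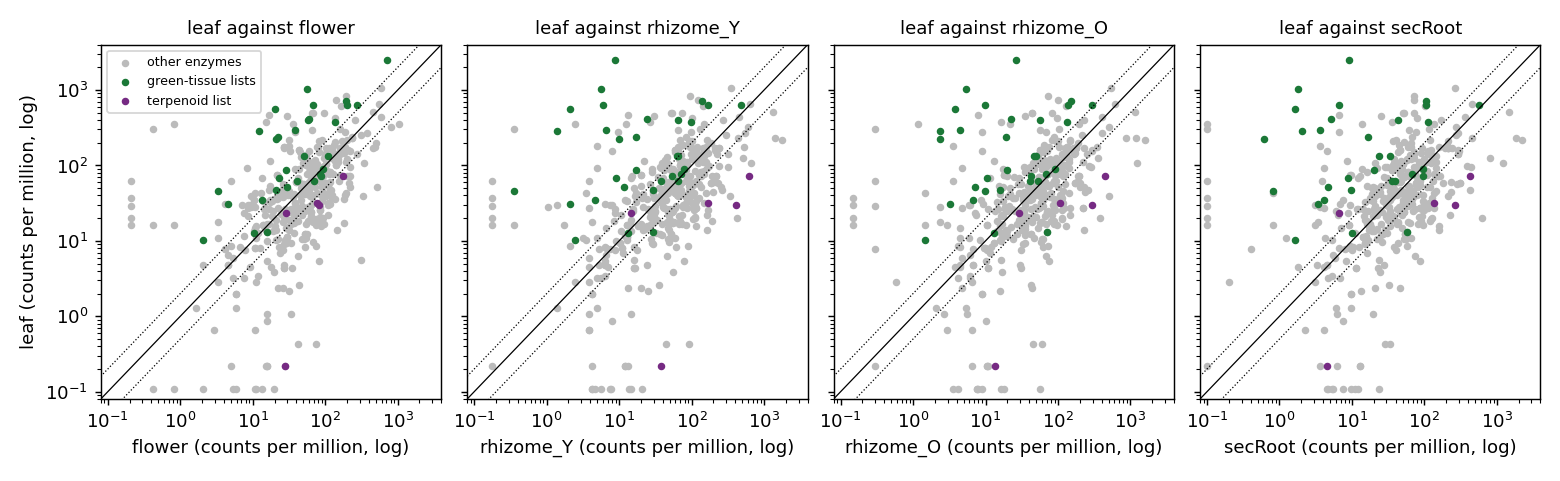
Level of each of the 437 enzymes in leaf (vertical axis) and in 1 other tissue per panel (horizontal axis), both in CPM on log axes, with counts of 0 drawn at 0.5 counts. The solid line marks equal levels and the dotted lines 2-fold differences; green points are the Calvin cycle, electron transport, photorespiration and tetrapyrrole lists, and most lie above the line, whereas 4 of the 5 terpenoid enzymes (purple) lie below it in every panel.

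The unit matters for these counts. The enzyme counts of leaf sat on contigs with a count-weighted mean length of 1502 bp in leaf, against 1611 bp in flower, 1737 bp in secRoot, 1733 bp in rhizome_O and 1727 bp in rhizome_Y. The FPKM of all contigs added up to 1993000 in leaf, against 1669560 in flower, 1574400 in secRoot, 1568220 in rhizome_O and 1571430 in rhizome_Y. In summed FPKM the median log2 ratio over all enzymes was 0.32 against flower, 0.67 against secRoot, 0.56 against rhizome_O and 0.49 against rhizome_Y, and in summed TPM, which have the same sum in every library, 0.07 against flower, 0.33 against secRoot, 0.22 against rhizome_O and 0.15 against rhizome_Y. The part of length and of these sums in the shift from CPM was not tested. Of the enzymes past 2-fold in FPKM, the share that was higher in leaf was 63.8% against flower and 72.3% against secRoot, where CPM gave 41.2% and 49.8%. Of the 69 enzymes higher than all 4 others in CPM, 53 were so in FPKM too, and of the 86 lower ones 36. Of the 86, 11 had more FPKM in leaf than in each of the others, and of the 69 none had less FPKM in leaf than in all 4. FPKM are therefore given below for the enzymes described as lower in leaf than in all 4 others whose call is lost in FPKM. The 10 enzymes (at least 200 counts) with the largest ratio of leaf to the highest other tissue kept their direction, but each ratio was smaller in FPKM. For sedoheptulose-bisphosphatase it was 23.6 in CPM and 6.10 in FPKM, and for pyruvate, phosphate dikinase 143 and 17.1. The intervals given below do not cover this difference between scales.

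**Figure D3:**
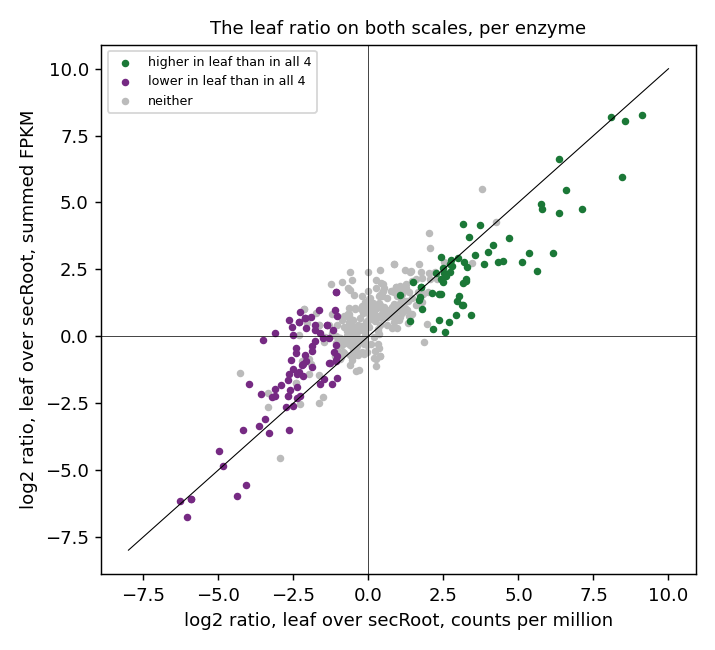
Log2 ratio of leaf over secRoot for each enzyme with counts in both libraries, in CPM (horizontal axis) and in summed FPKM (vertical axis); the line marks equal ratios. Enzymes higher in leaf than in all 4 other tissues (green) are above 0 on both axes, and part of the lower ones (purple) lie above 0 in FPKM.

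The 7 enzymes taken as markers of green tissue, 5 of the Calvin cycle and 2 of electron transport, were all higher in leaf, as its label has it. All 5 measured Calvin cycle enzymes were at least 2-fold higher than in every other tissue, against 15.8% of all enzymes. Their median log2 ratio was 3.44 against flower, 8.10 against secRoot, 6.58 against rhizome_O and 7.50 against rhizome_Y. Rubisco had 2509 CPM in leaf (95% interval 2463 to 2555), against 704 in flower, 9.15 in secRoot, 26.6 in rhizome_O and 8.81 in rhizome_Y. Its ratio was 3.56 (95% interval 3.38 to 3.75) over flower and 274 (95% interval 205 to 376) over secRoot, so flower lay between leaf and the underground tissues. The reads came from different unigenes: TR41638|c2_g1 held 7485 counts in leaf and none in flower, and TR32787|c0_g1 held 12 in leaf and 1681 in flower. The phosphorylating NADP-dependent glyceraldehyde-3-phosphate dehydrogenase, which uses the photosynthetic NADPH, had 1022 CPM in leaf, against 56.6 in flower, 1.83 in secRoot, 5.32 in rhizome_O and 5.64 in rhizome_Y. Phosphoribulokinase, which makes the acceptor of carbon dioxide, had 226 CPM in leaf, against 20.8 in flower, 0.610 in secRoot, 2.37 in rhizome_O and 9.87 in rhizome_Y. For sedoheptulose-bisphosphatase, which regenerates that acceptor, the levels were 285 CPM in leaf, against 12.1 in flower, 2.03 in secRoot, 2.37 in rhizome_O and 1.41 in rhizome_Y. Each of these 3 was lowest in the underground tissues, with flower between them and leaf. Ribulose-phosphate 3-epimerase, which also serves the pentose phosphate pathway, differed least, with 382 CPM in leaf, against 136 in flower, 111 in secRoot, 131 in rhizome_O and 97.6 in rhizome_Y, and in FPKM it was the only one of the 5 under 2-fold against flower.

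Both measured enzymes of photosynthetic electron transport were higher in leaf than in all others, against 15.8% of all enzymes. Plastoquinol-plastocyanin reductase, the cytochrome b6f complex, had 414 CPM in leaf, against 59.1 in flower, 5.08 in secRoot, 22.8 in rhizome_O and 23.97 in rhizome_Y. Ferredoxin-NADP+ reductase, which has forms in roots as well, had 705 CPM in leaf, against 192 in flower, 107 in secRoot, 149.6 in rhizome_O and 139 in rhizome_Y. The gap between leaf and the underground tissues was thus wider for the cytochrome b6f complex than for the reductase.

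In photorespiration 5 of 8 measured enzymes were higher in leaf than in all 4 others, against 15.8% of all enzymes, and none was lower than all 4. Without the contigs that stand under several enzymes, 6 were measured, of which 2 were higher and 1 lower than all 4. Over all 330 enzymes measured in that way, 61 were higher and 63 lower. With all contigs, the median log2 ratio was 1.63 against flower, 2.34 against secRoot, 2.17 against rhizome_O and 2.12 against rhizome_Y. Serine-glyoxylate transaminase, which forms glycine in the peroxisome, had 642 CPM in leaf, against 68.2 in flower, 6.71 in secRoot, 9.76 in rhizome_O and 5.99 in rhizome_Y. Serine-pyruvate transaminase is counted on 14 contigs that also stand under that activity, so its 563 CPM in leaf, against 20.4 in flower, 1.63 in secRoot, 3.84 in rhizome_O and 2.11 in rhizome_Y are largely the same reads. The P protein of glycine decarboxylase, which releases the photorespired carbon dioxide, was nearer to the others, with 639 CPM in leaf, against 279 in flower, 568 in secRoot, 299 in rhizome_O and 487 in rhizome_Y. The ferredoxin-dependent glutamate synthase, which takes up the released ammonia, had 630.2 CPM in leaf, against 198 in flower, 107 in secRoot, 137 in rhizome_O and 169.5 in rhizome_Y. In this enzyme the scales disagreed, since the summed FPKM were 133 in leaf, against 233 in flower, 118 in secRoot, 178 in rhizome_O and 206 in rhizome_Y. Glyoxylate reductase and glycerate 3-kinase stayed within 2-fold of all 4 tissues.

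Of 16 measured enzymes of tetrapyrrole and chlorophyll metabolism, 8 were higher in leaf than in all 4 others, against 15.8% of all enzymes, and none was lower than all 4, with a median log2 ratio of 1.28 against flower, 2.57 against secRoot, 1.91 against rhizome_O and 1.58 against rhizome_Y. The magnesium-protoporphyrin IX monomethyl ester cyclase, which closes the fifth ring of chlorophyll, had 295 CPM in leaf, against 37.9 in flower, 3.66 in secRoot, 4.43 in rhizome_O and 6.70 in rhizome_Y. Chlorophyll(ide) b reductase, the first enzyme of chlorophyll b breakdown, had 236 CPM in leaf, against 22.5 in flower, 16.5 in secRoot, 18.9 in rhizome_O and 16.9 in rhizome_Y. Chlorophyllase, which removes the phytol tail, had 45.3 CPM in leaf, against 3.33 in flower, 0.813 in secRoot, 9.76 in rhizome_O and 0.352 in rhizome_Y. Some enzymes that are shared with heme differed less: porphobilinogen synthase, an early step, had 132 CPM in leaf, against 108 in flower, 33.1 in secRoot, 49.4 in rhizome_O and 64.2 in rhizome_Y, and uroporphyrinogen decarboxylase, glutamyl-tRNA reductase and glutamate-1-semialdehyde aminomutase stayed within 2-fold of all 4 tissues. Coproporphyrinogen oxidase, also shared with heme, had 585 leaf counts on TR54451|c0_g1. Its main unigene elsewhere, TR58763|c0_g1, held 111 counts in flower, 88 in secRoot, 141 in rhizome_O and 167 in rhizome_Y. In FPKM, 5 of the 16 passed 2-fold in favour of leaf against all 4, beside 83 of all 437 enzymes.

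Several of the largest differences in favour of leaf lay outside photosynthesis. Pyruvate, phosphate dikinase, which makes phosphoenolpyruvate and is known for its part in C4 photosynthesis and in remobilising nitrogen, had 1630 counts in leaf, against 2 in flower, 0 in secRoot, 4 in rhizome_O and 7 in rhizome_Y. 4-Hydroxyphenylpyruvate dioxygenase, which opens the way to tocopherol and plastoquinone, had 473 CPM in leaf, against 16.6 in flower, 6.71 in secRoot, 7.98 in rhizome_O and 13.4 in rhizome_Y. Its ratio over flower, the nearest tissue, was 28.4 (95% interval 20.8 to 39.9) in CPM and 4.44 in FPKM. Formamidase, which releases ammonia from formamide, had 448 CPM in leaf, against 29.5 in flower, 24.998 in secRoot, 35.2 in rhizome_O and 29.96 in rhizome_Y. A further pair of enzymes at this end carry names that are known from microbes, 2,3-dihydro-2,3-dihydroxybenzoate dehydrogenase with 61.3 CPM in leaf, against 4.99 in flower, 3.86 in secRoot, 3.55 in rhizome_O and 3.88 in rhizome_Y, and coenzyme F420 hydrogenase with 91.9 CPM in leaf, against 8.32 in flower, 4.06 in secRoot, 4.73 in rhizome_O and 4.93 in rhizome_Y. These names come from sequence similarity and say which entry the contigs resembled most.

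Among enzymes with at least 200 counts, the largest ratio of leaf to the highest other tissue belonged to (S)-norcoclaurine synthase, which condenses dopamine and an aldehyde in the first step to benzylisoquinoline alkaloids. It had 1407 counts in leaf, against 1 in flower, 0 in secRoot, 1 in rhizome_O and 1 in rhizome_Y, and all of these leaf counts sat on the unigene TR57967|c0_g1. The ratio was 733 (95% interval 131 to 28962) over flower. Over secRoot it was at least 500.1 with the floor of 3 counts in that library, and the exact 95% interval started at 406. (RS)-Norcoclaurine 6-O-methyltransferase, which methylates its product, had 283 counts in leaf, against 0 in flower, 0 in secRoot, 1 in rhizome_O and 0 in rhizome_Y, at least 49.1-fold higher than in flower with the same floor (lower end of the exact 95% interval 39.7). Berbamunine synthase, which couples benzylisoquinoline units, was found in leaf only, with 92 counts in leaf, against 0 in flower, 0 in secRoot, 0 in rhizome_O and 0 in rhizome_Y. The names of these 3 enzymes come from sequence similarity too. They rest on few contigs, 3 for norcoclaurine synthase, 3 for the 6-O-methyltransferase and 2 for berbamunine synthase. Whether leaf makes such alkaloids was not tested. The other members of the benzylisoquinoline pathway were looked up after these values were seen. (S)-Coclaurine-N-methyltransferase, the next methylation step, had 14.1 CPM in leaf, against 32.04 in flower, 17.1 in secRoot, 18.9 in rhizome_O and 21.1 in rhizome_Y, and tyrosine decarboxylase, which makes tyramine, 34.5 CPM in leaf, against 10.4 in flower, 18.3 in secRoot, 62.1 in rhizome_O and 36.7 in rhizome_Y. Salutaridine reductase of the morphine branch had 0 counts in leaf, against 48 in flower, 59 in secRoot, 12 in rhizome_O and 13 in rhizome_Y. Among the 12 enzymes of the pathway with a complete list, 6 were measured, and 3 of these were higher in leaf than in all 4 others, beside 15.8% of all enzymes. The 3 include norcoclaurine synthase and the 6-O-methyltransferase, whose values led to the look-up, so this count is not independent of that choice. Ornithine decarboxylase, which makes putrescine and was also picked after its values were seen, was likewise seen in leaf only, with 75 counts in leaf and 0 in each of the 4 others, at least 26.7-fold higher than in secRoot and at least 13.02-fold higher than in flower with that floor (lower ends of the exact 95% intervals 21.1 and 10.3). The remaining 5 measured polyamine enzymes held counts in all 5 tissues.

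**Figure D4:**
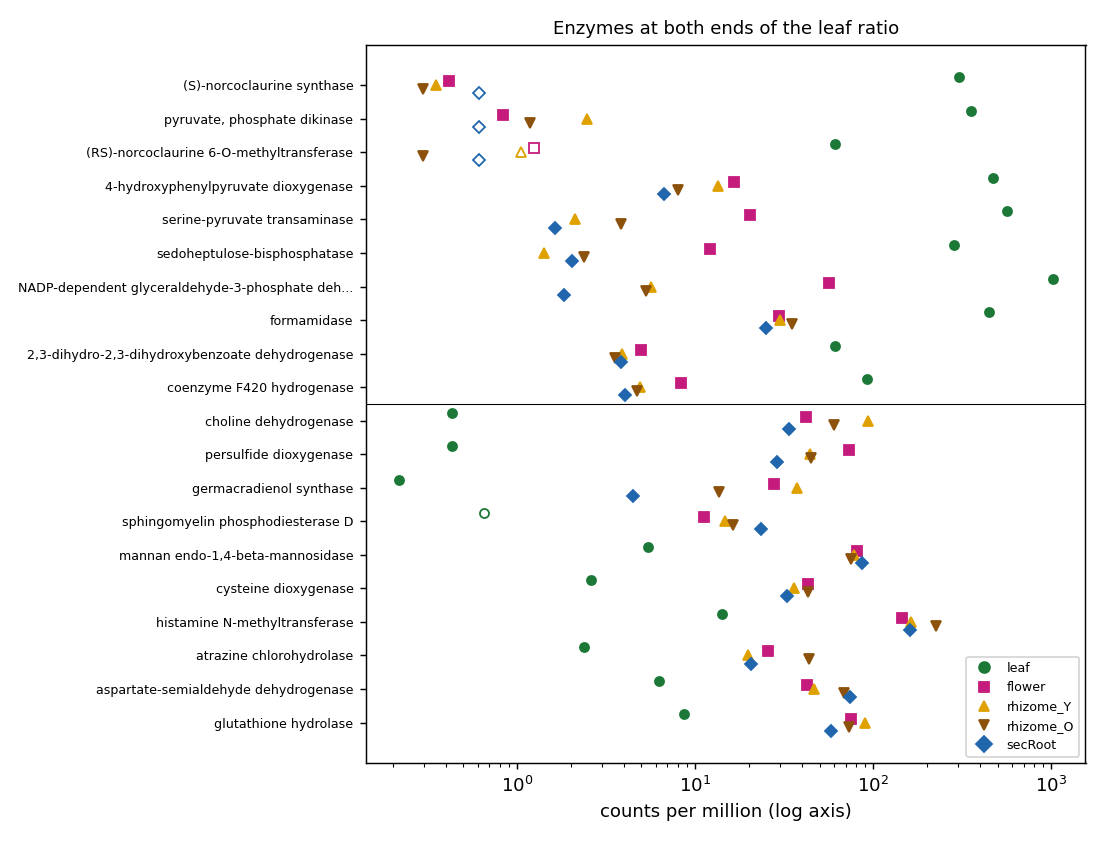
Level in CPM (log axis) of the 10 enzymes with the largest ratio of leaf to the highest other tissue (upper part) and the 10 with the smallest ratio of leaf to the lowest other tissue (lower part), among enzymes with at least 200 counts. Each symbol is 1 library, and an open symbol is a count of 0 drawn at the floor of 3 counts; leaf (green circles) lies to the right of all 4 others in the upper part and to the left in the lower part.

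At the other end, leaf held hardly any counts of some enzymes that were present in all 4 other tissues. Choline dehydrogenase, which oxidises choline to betaine aldehyde, had 2 counts in leaf, against 101 in flower, 166 in secRoot, 204 in rhizome_O and 264 in rhizome_Y, on contigs that all stand under other enzymes too. Its ratio was 0.00466 (95% interval 0.000561 to 0.0170) over rhizome_Y. Persulfide dioxygenase, which oxidises persulfides in mitochondria, had 2 counts in leaf, against 177 in flower, 142 in secRoot, 151 in rhizome_O and 126 in rhizome_Y. Sphingomyelin phosphodiesterase D, a name known from bacteria and spider venom, had 0 counts in leaf, against 27 in flower, 115 in secRoot, 55 in rhizome_O and 42 in rhizome_Y, so the ratio of leaf to secRoot was at most 0.0278 with the floor of 3 counts and the exact 95% interval ended at 0.0348. Leaf had no unigene of its own for any of these 3 enzymes. Mannan endo-1,4-beta-mannosidase, which cuts cell-wall mannans, had 5.42 CPM in leaf, against 81.6 in flower, 86.4 in secRoot, 75.4 in rhizome_O and 78.6 in rhizome_Y. Cysteine dioxygenase, which oxidises cysteine to its sulfinic acid, had 2.60 CPM in leaf, against 43.3 in flower, 32.9 in secRoot, 42.9 in rhizome_O and 35.95 in rhizome_Y, and aspartate-semialdehyde dehydrogenase, at the branch to lysine, threonine and methionine, 6.28 CPM in leaf, against 42.4 in flower, 74.6 in secRoot, 68.6 in rhizome_O and 46.5 in rhizome_Y. Glutathione hydrolase, which takes the glutamyl residue off glutathione, had 8.67 CPM in leaf, against 74.9 in flower, 58.1 in secRoot, 73.6 in rhizome_O and 90.6 in rhizome_Y. Its main unigene in the other tissues, TR59653|c1_g1, is the one named above for glycine transaminase, but the contigs listed for the hydrolase held 1 count of it in leaf, against 136 in flower, 212 in secRoot, 192 in rhizome_O and 177 in rhizome_Y. Its place at the low end of leaf thus depends on which contigs of that unigene are listed under each enzyme.

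A pair of enzymes in this group kept their place in counts but not in FPKM. Histamine N-methyltransferase, a name known from animals, had 14.1 CPM in leaf, against 145 in flower, 161 in secRoot, 225 in rhizome_O and 164 in rhizome_Y, while its summed FPKM were 41.5 in leaf, against 42.8 in flower, 45.9 in secRoot, 65.7 in rhizome_O and 49.5 in rhizome_Y. Atrazine chlorohydrolase, a name known from bacteria, had 2.38 CPM in leaf, against 25.8 in flower, 20.7 in secRoot, 43.5 in rhizome_O and 19.7 in rhizome_Y, and in FPKM 15.1 in leaf, against 17.02 in flower and 13.9 in secRoot.

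The terpenoid list, which holds steps towards the ginsenoside skeleton, had some of the lowest leaf ratios of all lists: 4 of its 5 measured enzymes were lower in leaf than in all 4 others, against 19.7% of all enzymes, and the median log2 ratio was -1.27 against flower, -2.53 against secRoot, -2.58 against rhizome_O and -3.05 against rhizome_Y. Acetyl-CoA C-acetyltransferase, the first step of the mevalonate pathway, had 73.5 CPM in leaf (95% interval 65.8 to 81.7), against 177 in flower, 425 in secRoot, 439.9 in rhizome_O and 610.2 in rhizome_Y. Hydroxymethylglutaryl-CoA synthase, the second step, had 30.3 CPM in leaf (95% interval 25.5 to 35.8), against 81.97 in flower, 265 in secRoot, 297 in rhizome_O and 405 in rhizome_Y. Squalene synthase, which joins farnesyl units into the precursor of triterpenes and sterols, had 32.3 CPM in leaf (95% interval 27.3 to 37.9), against 77.4 in flower, 136 in secRoot, 106 in rhizome_O and 167 in rhizome_Y. The 3 enzymes shared the order of tissues, with leaf lowest, flower next and rhizome_Y highest. Squalene synthase in leaf was 0.193 (95% interval 0.159 to 0.232) of the rhizome_Y level and 0.417 (95% interval 0.334 to 0.520) of the flower level. On single unigenes, leaf had 77 counts on TR62965|c0_g1 and 1 on TR62965|c0_g2, which held 179 counts in flower and 463 in rhizome_Y.

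The direction of these 3 enzymes was the same in FPKM, with 90.8 FPKM in leaf, against 271 in flower, 554 in secRoot, 558 in rhizome_O and 813 in rhizome_Y for the acetyltransferase, and 59.8 FPKM in leaf, against 96.7 in flower, 235 in secRoot, 229 in rhizome_O and 307 in rhizome_Y for hydroxymethylglutaryl-CoA synthase. For squalene synthase, summed FPKM of 61.6 in leaf and 68.97 in flower were close together, whereas rhizome_Y had 159.8. In FPKM 2 of the 5 enzymes were lower than in all 4, beside 41 of all 437 enzymes. Germacradienol synthase, a sesquiterpene synthase named after a bacterial enzyme, had 1 count in leaf, against 67 in flower, 22 in secRoot, 46 in rhizome_O and 106 in rhizome_Y. Farnesol dehydrogenase, the fifth measured enzyme, was not lower in leaf than in all 4 others. The steps between hydroxymethylglutaryl-CoA synthase and squalene synthase, and those after squalene synthase, were not analysed here.

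In nitrogen assimilation, the median log2 ratio of 5 enzymes was -0.78 against flower, -2.32 against secRoot, -2.99 against rhizome_O and -2.04 against rhizome_Y, and 2 of them were lower in leaf than in all others, against 19.7% of all enzymes. The entry named nitrate reductase (NADPH) had 0 counts in leaf, against 5 in flower, 48 in secRoot, 194 in rhizome_O and 58 in rhizome_Y, with no unigene of its own in leaf. The NADH-dependent form, the usual one in plants, was not analysed here. Ferredoxin-nitrite reductase, which reduces nitrite to ammonium, had 27.5 CPM in leaf, against 14.98 in flower, 86.98 in secRoot, 219 in rhizome_O and 114 in rhizome_Y, so that leaf lay above flower and below the underground tissues. The other lower enzyme was NADPH-dependent glutamate synthase. Its most abundant unigene, TR67690|c1_g2 (588 bp), held 1 count in leaf, against 37 in flower, 31 in secRoot, 37 in rhizome_O and 35 in rhizome_Y. The unigene TR67690|c1_g1, which shares the first part of that name, held 2903 leaf counts under ferredoxin-dependent glutamate synthase. This lower call thus rests on few counts and on which unigenes are listed under each enzyme. Glutamate dehydrogenase has 2 entries that are not separate measurements, since 9 of the 10 contigs named for NAD+ are among the 20 named for both cofactors, and these 9 held all 125 leaf counts of the smaller entry. The larger entry had 211 CPM in leaf, against 82.4 in flower, 212 in secRoot, 147 in rhizome_O and 100.1 in rhizome_Y, and the smaller one 27.1 CPM in leaf, against 46.6 in flower, 135 in secRoot, 88.4 in rhizome_O and 58.5 in rhizome_Y. Without contigs of several enzymes, 2 enzymes of the list were measured and 1 was lower than all 4, beside 63 of all 330 enzymes. In FPKM the median of the list was 1.69 against flower, 0.06 against secRoot, -0.94 against rhizome_O and 0.03 against rhizome_Y, so the direction for the list as a whole depends on the scale except against rhizome_O.

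Enzymes of amino acid synthesis differed in both directions. Of 12 measured enzymes for aromatic amino acids, 2 were higher and 1 lower in leaf than in all others, with a median log2 ratio of 0.09 against flower, -0.14 against secRoot, 0.04 against rhizome_O and -0.36 against rhizome_Y. Over all enzymes 15.8% were higher and 19.7% lower, so the 2 calls lie near the first share and the 1 call under the second. The first enzyme of the shikimate pathway, 3-deoxy-7-phosphoheptulonate synthase, had 519 CPM in leaf, against 458 in flower, 1477 in secRoot, 1156 in rhizome_O and 1313 in rhizome_Y. Further along, 3-phosphoshikimate 1-carboxyvinyltransferase, the target of glyphosate, had 46.8 CPM in leaf, against 121 in flower, 431 in secRoot, 259 in rhizome_O and 261 in rhizome_Y, and in FPKM 52.2 in leaf, against 74.2 in flower, 254 in secRoot, 166 in rhizome_O and 161 in rhizome_Y, so that leaf was still lowest but within 2-fold of flower. Chorismate synthase had 97.9 CPM in leaf, against 97.4 in flower, 390.0 in secRoot, 266 in rhizome_O and 238 in rhizome_Y. Against each underground tissue taken alone, 5 of the 12 enzymes were lower in leaf, and 3 (secRoot) or 4 (each rhizome) were higher. At the described steps on the way to chorismate, leaf and flower lay below the underground tissues. Anthranilate synthase, which leads from chorismate to tryptophan, went the other way, with 491 CPM in leaf, against 96.1 in flower, 71.9 in secRoot, 82.5 in rhizome_O and 72.97 in rhizome_Y.

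For branched-chain amino acids, ketol-acid reductoisomerase, shared by valine and isoleucine, was level, with 658 CPM in leaf, against 553 in flower, 459 in secRoot, 615 in rhizome_O and 647 in rhizome_Y. In the leucine branch neighbouring steps were opposite: 2-isopropylmalate synthase, the first, had 296 CPM in leaf, against 66.2 in flower, 61.99 in secRoot, 56.5 in rhizome_O and 65.6 in rhizome_Y, and 3-isopropylmalate dehydrogenase had 58.1 CPM in leaf, against 212 in flower, 179 in secRoot, 203 in rhizome_O and 230.2 in rhizome_Y. Dihydroxy-acid dehydratase had 18.4 CPM in leaf, against 57.4 in flower, 89.4 in secRoot, 80.4 in rhizome_O and 69.8 in rhizome_Y, but its FPKM ran the other way, with 101 FPKM in leaf, against 46.99 in flower, 53.1 in secRoot, 56.5 in rhizome_O and 46.4 in rhizome_Y. It has 9 unigenes with at least 90% of their level in leaf and 2 with at most 10%.

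The 3 measured enzymes of jasmonate, the wound and defence hormone, each had their own pattern. Hydroperoxide dehydratase (allene oxide synthase), which commits fatty acid hydroperoxides to the pathway, had 839 CPM in leaf, against 193 in flower, 71.7 in secRoot, 73.3 in rhizome_O and 96.6 in rhizome_Y. Allene-oxide cyclase, the following step, had 126 CPM in leaf, against 96.95 in flower, 804 in secRoot, 352 in rhizome_O and 519.6 in rhizome_Y, highest in secRoot. Jasmonate O-methyltransferase, which forms the volatile methyl ester, had 5.63 CPM in leaf, against 313 in flower, 23.98 in secRoot, 16.6 in rhizome_O and 16.2 in rhizome_Y. Leaf was the highest tissue for the first, near flower for the second and the lowest for the third, where FPKM gave 27.7 in leaf, against 329 in flower and 14.03 in rhizome_Y.

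Opposite neighbours were also seen in the methionine salvage cycle, which returns the methylthio group of polyamine and ethylene synthesis to methionine. Methylthioadenosine nucleosidase, its entry, had 72.6 CPM in leaf, against 222 in flower, 154 in secRoot, 196 in rhizome_O and 219 in rhizome_Y. In FPKM it had 80.02 in leaf, against 239 in flower and 154 in secRoot, the nearest tissue, which is just under 2-fold. S-methyl-5-thioribose kinase had 169 CPM in leaf, against 102 in flower, 92.3 in secRoot, 124 in rhizome_O and 101 in rhizome_Y. Acireductone dioxygenase, near the end of the cycle, had 429 CPM in leaf, against 136 in flower, 79.7 in secRoot, 96.7 in rhizome_O and 100.1 in rhizome_Y. Beta-cyanoalanine synthase, which detoxifies the cyanide released in ethylene synthesis, was at least 2-fold lower in leaf than in all others, with 39.7 CPM in leaf, against 335 in flower, 209 in secRoot, 502 in rhizome_O and 343 in rhizome_Y. Of the 3 measured cytokinin enzymes, adenylate isopentenyltransferase, which starts the synthesis, had 11.7 CPM in leaf, against 7.49 in flower, 15.9 in secRoot, 20.1 in rhizome_O and 11.98 in rhizome_Y. Both zeatin O-glucosyltransferases, which store the hormone as glucoside, were higher in leaf than in all 4, at 23.4 CPM for the trans form and 16.5 CPM for the cis form, against at most 8.94 and 3.05 CPM elsewhere. These are largely the same reads, since all 7 contigs of the cis entry stand under the trans entry too and held 76 of the 108 leaf counts of that entry. Without contigs of several enzymes, 2 cytokinin enzymes were measured and 0 were higher than all 4. In FPKM, 1 of the 3 enzymes passed 2-fold in favour of leaf against all 4, beside 83 of all 437 enzymes.

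The lists of aminoacyl-tRNA ligases and of purine synthesis, which every growing cell needs, stayed mostly within 2-fold of the other tissues in CPM. Of 6 measured aminoacyl-tRNA ligases, which load amino acids on their tRNA, 5 stayed within 2-fold of all 4 tissues and none was higher or lower than all 4. Over all enzymes 27.9% stayed within 2-fold of all 4. Leucine-tRNA ligase had 175 CPM in leaf, against 186 in flower, 160.2 in secRoot, 179 in rhizome_O and 157 in rhizome_Y, and glutamate-tRNA ligase 159.7 CPM in leaf, against 123 in flower, 122 in secRoot, 134 in rhizome_O and 116 in rhizome_Y. Aspartate-tRNA ligase had 111 CPM in leaf, against 68.7 in flower, 107 in secRoot, 102 in rhizome_O and 85.7 in rhizome_Y. Of 8 measured enzymes of purine synthesis, 7 stayed within 2-fold, although 2 of these share 1 contig list. IMP dehydrogenase, which turns to guanine nucleotides, had 91.2 CPM in leaf, against 96.95 in flower, 143 in secRoot, 143 in rhizome_O and 164 in rhizome_Y, and amidophosphoribosyltransferase, the committed step, 78.01 CPM in leaf, against 57.01 in flower, 48.2 in secRoot, 101 in rhizome_O and 67.7 in rhizome_Y. Phosphoribosylaminoimidazole carboxylase had 53.7 CPM in leaf, against 58.7 in flower, 59.3 in secRoot, 72.7 in rhizome_O and 62.4 in rhizome_Y. The unigenes behind the 6 ligases were mostly separate, with an overlap of leaf and flower between 0% and 5.00%. In FPKM 3 of the 6 ligases and none of the purine enzymes passed 2-fold in favour of leaf against all 4 tissues, beside 83 of all 437 enzymes. The median log2 ratio of the ligases in FPKM was 1.28 against flower, 1.09 against secRoot, 0.96 against rhizome_O and 1.24 against rhizome_Y, so their near equality in CPM was not kept in FPKM.

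The remaining lists are given by their calls against all 4 tissues at once, beside 15.8% higher and 19.7% lower over all enzymes in CPM and 83 higher and 41 lower of all 437 in FPKM, and several lie near these shares. Among lipid and sugar lists, there were 0 higher and 3 lower of 14 in CPM (2 and 2 in FPKM) for N-glycan processing, 0 higher and 2 lower of 7 in CPM (0 and 0 in FPKM) for sphingolipids, 0 higher and 2 lower of 5 in CPM (0 and 0 in FPKM) for plastid fatty acid synthesis, 0 higher and 2 lower of 6 in CPM (1 and 0 in FPKM) for phospholipids and 1 higher and 2 lower of 6 in CPM (1 and 0 in FPKM) for ascorbate and cell-wall sugars. For cofactors there were 0 higher and 2 lower of 9 in CPM (3 and 0 in FPKM) for folate, 0 higher and 0 lower of 5 in CPM (1 and 0 in FPKM) for riboflavin and 2 higher and 1 lower of 4 in CPM (2 and 0 in FPKM) for plastid quinones. Amino acid and nitrogen lists had 0 higher and 1 lower of 6 in CPM (0 and 1 in FPKM) for lysine, 0 higher and 0 lower of 5 in CPM (0 and 0 in FPKM) for histidine, 1 higher and 1 lower of 6 in CPM (1 and 0 in FPKM) for arginine, 0 higher and 0 lower of 8 in CPM (0 and 0 in FPKM) for sulfur and glutathione and 1 higher and 0 lower of 6 in CPM (3 and 1 in FPKM) for purine breakdown. In central metabolism the counts were 0 higher and 0 lower of 5 in CPM (1 and 0 in FPKM) for the citrate and glyoxylate cycles and 2 higher and 1 lower of 6 in CPM (1 and 0 in FPKM) for starch and sugar phosphates. The lower calls of these lists were thus fewer in FPKM, and folate had calls in opposite directions on the 2 scales. Of 195 listed enzymes that were measured, 35 were higher than all 4 others in CPM, 30 lower, 61 within 2-fold of all 4 and 69 mixed.

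Several of the negative medians among these lists depend on the scale. Of 31 lists, 8 had a median above 0 against all 4 tissues in CPM, and these 8 did so in FPKM too. Another 11 had a median below 0 against all 4 in CPM, of which 3 were below 0 and 4 above 0 against all 4 in FPKM. N-glycan processing is 1 of those that turned, with a median log2 ratio of -0.57 against flower, -0.74 against secRoot, -0.72 against rhizome_O and -0.81 against rhizome_Y in CPM and of 0.68 against flower, 0.64 against secRoot, 0.70 against rhizome_O and 0.66 against rhizome_Y in FPKM. The lists for sphingolipids, branched-chain amino acids and folate turned as well, while those for terpenoids, riboflavin and plastid fatty acid synthesis stayed below 0.

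**Figure D5:**
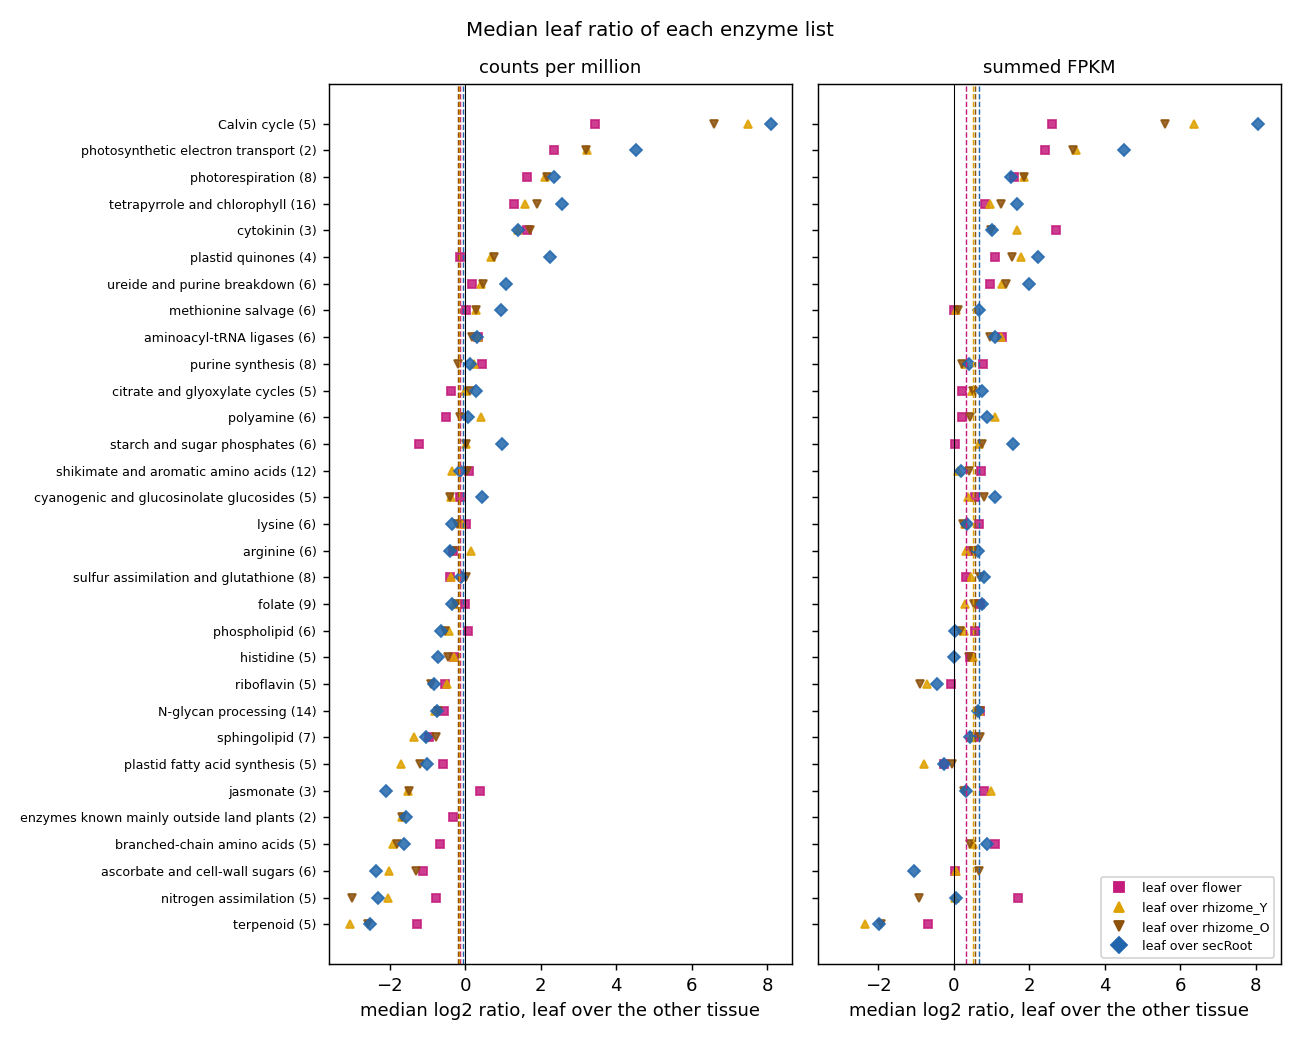
Median log2 ratio of leaf over each other tissue for the 31 enzyme lists, with the number of measured enzymes in brackets, in CPM (left) and in summed FPKM (right). Dashed lines are the medians over all 437 enzymes in the colour of the tissue; the Calvin cycle is at the top with medians of 3.44 to 8.10 in CPM, and the terpenoid list at the bottom; the list of enzymes known mainly outside land plants has no FPKM median, since 1 of its 2 enzymes is listed at 0 in leaf.

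Enzymes known mainly outside land plants served as markers of other organisms in the leaf sample. Of 8 listed, 2 were measured. Dolichyl-phosphate-mannose-protein mannosyltransferase, known from fungi and animals, had 254 CPM in leaf, against 312 in flower, 272 in secRoot, 218 in rhizome_O and 294 in rhizome_Y, and homoserine O-succinyltransferase, known from bacteria, had 0 counts in leaf, against 2 in flower, 26 in secRoot, 26 in rhizome_O and 16 in rhizome_Y. The other 6 had under 50 counts each and were seen mostly in leaf, with 39 counts together in leaf, against 5 in flower, 4 in secRoot, 0 in rhizome_O and 7 in rhizome_Y. Leaf held 21 of the 24 counts of methylisocitrate lyase and 14 of the 17 of phosphoenolpyruvate carboxykinase (GTP), both counts of 2-methylcitrate synthase and both of glycogen(starch) synthase, and none of the 3 of homoserine O-acetyltransferase and the 7 of 5-aminolevulinate synthase. All 8 together had 262 CPM in leaf, against 315 in flower, 278 in secRoot, 226 in rhizome_O and 302 in rhizome_Y. Most of it lay on the mannosyltransferase, which differed little between the 5 libraries, so this sum says little about the other markers. The 6 under 50 counts had 8.45 CPM together in leaf, against 2.08 in flower, 0.813 in secRoot, 0 in rhizome_O and 2.47 in rhizome_Y. With the microbe-named dihydroxybenzoate dehydrogenase and coenzyme F420 hydrogenase that were higher in leaf, the markers other than the mannosyltransferase ran in both directions. The part of other organisms in the leaf library was not tested.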

How the data were processed

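The authors trimmed reads with Trimmomatic and assembled those of all tissues with Trinity, then aligned each library with Bowtie and quantified contigs with RSEM. For Trimmomatic and RSEM a version is not given in the sources used here. In the deposited files, the expected counts are the read pairs placed on each contig, in whole numbers. The deposited FPKM divide these counts by effective contig length and depth. The deposited TPM are scaled by the authors to the same sum per library. The series table of FPKM was not used, and the number of columns left unused for want of a sample was 0.

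Contigs were assigned to enzymes by the study's list of enzymes by KEGG pathway, of which 642 of 1130 entries used here had a complete contig list. Counts, FPKM and TPM were summed per enzyme, a contig under several enzymes counting for each. Counts were divided by the library total. Enzymes with fewer than 50 counts over all libraries were left out (44 of 481). Levels have exact 95% Poisson intervals and ratios exact conditional intervals, which cover counting error only; the depth of each library, 2403221 to 4920387 counts, sets this precision. A count of 0 was set to 3 counts per library for a ratio, which is then a bound for that floor; the exact interval can reach beyond it. Ratios of FPKM had nothing added, and an enzyme listed at 0 was given no FPKM ratio.

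Groups were the 5 labelled tissues with 1 library each, so no test was made and an estimate between tissues rests on 1 plant. Named were the 10 enzymes with the largest ratio of leaf to the highest other tissue, the 10 with the smallest ratio of leaf to the lowest other tissue (at least 200 counts), and members of the 31 lists, at most 4 with values beyond the Calvin cycle; exceptions are named as such. The members and lists were chosen with earlier results of these data known. The ratio and its interval were tested on data simulated with counting error only, which cannot show variation between libraries or the assignment of contigs. Alternatives were other units, scalings (TMM by edgeR 4.0.16 in R 4.3.3, median of ratios), minimums, folds and sets of contigs. The software was Python 3.11.15, scipy 1.17.1, pandas 2.3.3, numpy 2.4.6 and matplotlib 3.10.9. No reference genome was used and no sequence was analysed here.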

Additional observations from a re-analysis of the deposited data

How the results depend on the processing

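No paired analysis was possible because each tissue has 1 library and the labels give no replicate numbers to pair; for the same reason no library could be left out. The enzymes lower in leaf than in all 4 others numbered 86, against 41 in summed FPKM, 52 in summed TPM and 50 at 3-fold; the count of those lower in both CPM and FPKM, an alternative chosen after seeing the data, was 36. Those higher than all 4 numbered 69, and 118 without the most abundant contig of each enzyme. Enzymes lower than in 1 tissue changed with FPKM to 79 against flower, 74 against rhizome_Y, 75 against rhizome_O and 65 against secRoot. Without the most abundant contig they were 85 against rhizome_Y, 83 against rhizome_O and 82 against secRoot, while 151 were higher than in flower. At 3-fold, 84 were lower than in flower, 65 higher than in rhizome_Y and 67 higher than in rhizome_O. All other counts of enzymes stayed within 1.5 times, under TMM and median-of-ratios scaling, scaling to the counts on enzyme contigs, minimums of 20, 100 or above 0, contigs of 1 enzyme only, contigs of at least 500 bp, 1 enzyme per contig list and 1.5-fold. The median overlap of leaf with the other tissues stayed inside its quartiles with contigs in place of unigenes and with 100 counts in both libraries.

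For the enzymes named with values and past 2-fold against all 4, the log2 ratio of leaf over the mean of the 4 others kept its sign except as follows. Ferredoxin-dependent glutamate synthase was at -0.47 in FPKM and -0.78 in TPM, and dihydroxy-acid dehydratase at 0.99 in FPKM and 0.66 in TPM. Without the most abundant contig, which is then mostly that of 1 side, it was -2.19 for ribulose-phosphate 3-epimerase, -0.99 for sedoheptulose-bisphosphatase, -5.27 for phosphoribulokinase, -5.91 for magnesium-protoporphyrin IX monomethyl ester cyclase, -2.15 for glycine transaminase, 2.42 for hydroxymethylglutaryl-CoA synthase and 0.57 for beta-cyanoalanine synthase. The cause was not tested for FPKM and TPM. Sizes changed more often than signs. Over the named enzymes and the alternatives applied to them, 272 ratios stayed inside the counting interval of the main ratio. Another 218 left that interval, and 11 were the changes of sign given above. Depth limits enzymes at few counts: 26 enzymes had under 10 counts in leaf. Enzymes with lists cut short, and variation between plants or leaves, are outside what these 5 libraries show.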
